A study of Mus musculus with 12 samples.

Results

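The 10 genes described here are the G1 cyclins and CDK inhibitors Ccnd1, Ccnd2, Ccnd3, Ccne1, Ccne2, Cdkn1a, Cdkn1b, Cdkn1c, Cdkn2b and Cdkn2c, taken by gene symbol from 2 deposited expression tables of mouse liver tumours. All 10 were found among the 21751 gene entries of the Miz1 table and among the 24054 of the Miz1(POZ) table. The 12 libraries fall into 4 groups of 3, all from C57BL/6 mice. The first table compares Miz1fl/fl tumours without Cre with tumours of Miz1fl/fl mice carrying Alb-Cre (Miz1 delta Hep), and the second compares Miz1(POZ)fl/fl tumours without Cre with their Alb-Cre counterparts (Miz1(POZ) delta Hep). Every mouse, controls included, received diethylnitrosamine (25 mg/kg) at week 2 after birth and then carbon tetrachloride (0.5 ml/kg) each week, and was killed at 5 months. The albumin promoter drives Cre in hepatocytes, so other cells of the tumour keep the floxed allele. The labels give neither the deleted exons nor whether the tumours of a group came from separate mice, so p-values measure the spread between these samples, which may be technical.

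Progression from G1 into S phase is driven by D-type cyclins with Cdk4 or Cdk6, and by E-type cyclins with Cdk2, which phosphorylate the retinoblastoma protein and release E2F factors. Inhibitors of the INK4 class (here Cdkn2b, p15, and Cdkn2c, p18) bind Cdk4 and Cdk6, and those of the CIP/KIP class (Cdkn1a, p21; Cdkn1b, p27; Cdkn1c, p57) bind cyclin and kinase complexes more broadly. Miz1, the product of Zbtb17, is known to activate Cdkn1a and Cdkn2b at their core promoters, and MYC bound to Miz1 represses them. The POZ domain mediates contacts of Miz1 with other proteins and with itself. Whether these targets differ in tumours that lost Miz1 or its POZ domain in hepatocytes is the question the design poses for these genes.

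Promoter sequences are shown for Cdkn2b and Ccne1, which stood below every control library in the Miz1(POZ) knockout, and for Cdkn1a, which varied most between libraries there. RefSeq tables on GRCm38.p6 held 9 windows for 6 of the 10 members, each of 250 bases before and 50 bases after an annotated start, given 5′ to 3′ on the gene's strand. Capitals mark matches on either strand to the E-box CACGTG, the GC box GGGCGG, the E2F motifs TTTCGCGC and TTTGGCGC, the cAMP response element TGACGTCA, or the 20-base p53 motif without a spacer and with at most 1 mismatch. The windows lie at chr4:89310983-89311282 (minus strand) for Cdkn2b, at chr7:38107441-38107740 (minus strand) for Ccne1, and at chr17:29090729-29091028 and chr17:29093519-29093818 (plus strand) for the upstream and downstream starts of Cdkn1a.
Cdkn2b: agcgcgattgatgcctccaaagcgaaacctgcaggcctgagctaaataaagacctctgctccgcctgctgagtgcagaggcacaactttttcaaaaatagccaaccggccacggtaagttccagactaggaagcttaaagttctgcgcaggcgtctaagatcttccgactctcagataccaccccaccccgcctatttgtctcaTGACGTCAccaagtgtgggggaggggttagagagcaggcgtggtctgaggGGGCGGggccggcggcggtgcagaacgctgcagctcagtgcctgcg
Ccne1: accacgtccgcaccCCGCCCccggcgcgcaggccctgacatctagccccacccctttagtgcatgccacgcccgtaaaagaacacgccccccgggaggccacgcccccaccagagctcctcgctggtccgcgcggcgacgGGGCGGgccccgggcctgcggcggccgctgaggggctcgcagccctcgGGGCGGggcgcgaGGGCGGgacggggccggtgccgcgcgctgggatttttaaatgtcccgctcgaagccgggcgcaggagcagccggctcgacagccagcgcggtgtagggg
Cdkn1a upstream start: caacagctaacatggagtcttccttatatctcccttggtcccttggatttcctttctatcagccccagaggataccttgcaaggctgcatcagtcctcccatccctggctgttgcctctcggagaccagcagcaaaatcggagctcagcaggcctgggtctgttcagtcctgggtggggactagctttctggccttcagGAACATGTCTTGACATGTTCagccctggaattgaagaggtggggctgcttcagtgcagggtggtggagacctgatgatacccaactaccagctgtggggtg
Cdkn1a downstream start: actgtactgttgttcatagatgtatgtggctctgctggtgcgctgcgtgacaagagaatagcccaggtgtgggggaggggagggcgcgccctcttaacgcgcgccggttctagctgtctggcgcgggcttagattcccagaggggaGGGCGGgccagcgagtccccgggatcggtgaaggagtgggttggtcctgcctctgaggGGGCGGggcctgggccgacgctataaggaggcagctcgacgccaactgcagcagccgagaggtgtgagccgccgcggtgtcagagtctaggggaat

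The Cdkn2b window held 1 cAMP response element, found in 1.79% of all 32851 promoter windows of the same length, and 1 GC box, found in 35.7% of them. The Ccne1 window held 4 GC boxes and the downstream Cdkn1a window 2. The upstream Cdkn1a window held 1 p53 motif, a match found in 0.0883% of windows. None of the 4 windows held the E-box or the E2F motifs as spelled here, which occur in 7.15% and 0.813% of windows. Among the member windows not shown, that of 1 Cdkn2c start held 1 E-box, and that of its other start held 4 GC boxes. Ccnd1, Ccnd2, Ccne2 and Cdkn1c had no window, so their promoters were not searched. These matches describe letters only and were not measured as binding sites.

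The Miz1 table holds read counts divided by 1 factor per library, with 30151743 to 76122969 reads in genes in the 5 libraries where reads could be recovered. The Miz1(POZ) table states no unit, and its values are taken as FPKM, a value per transcript length and library size. Its depth is unknown. The tables were normalised separately, so each knockout was tested against its own floxed group. Zbtb17 was at 302 to 323 normalised reads in Miz1 floxed and 261 to 271 in Miz1 knockout tumours (log2 fold change -0.22, limma adjusted p = 0.9998), and at 1.82 to 2.46 and 1.95 to 2.60 FPKM in the Miz1(POZ) groups. The 10 hepatocyte markers examined were above 0 in every library. Miz1 floxed replicate 2 stood apart as the library with the lowest value for 7 of 7 liver tumour markers (Afp, Gpc3, H19, Igf2bp3, Golm1, Scd2 and Ly6d), which summed to 863 there against 8545 to 53300 in the other 5. That library was also lowest for 9 of 9 macrophage and monocyte markers and 7 of 10 hepatocyte markers. It was lowest for 16 of 21 E2F target and S phase genes, but for 1 of 6 cholangiocyte and progenitor markers. Miz1(POZ) floxed replicate 3 had the highest value for 5 of the 7 tumour markers, with a sum of 726 FPKM against 81.7 to 202 in the other 5.

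In Miz1(POZ) tumours, cyclin D1, cyclin E1 and p15 had knockout means of 0.321, 0.333 and 0.344 times the floxed means, while the other D cyclins and the CIP/KIP inhibitors had overlapping groups. Without floxed replicate 3 the log2 fold changes of these 3 genes were -1.10, -0.75 and -0.40, against -1.48, -0.97 and -0.91 with it. The CDK inhibitor p18 was above every control library. None of the 9 members tested passed the threshold. A gene was called at an adjusted p under 0.05 with limma on log2(value + 1), adjusted by Benjamini-Hochberg over all 11201 genes with a mean of at least 1 FPKM. The background rate was 0% (0 genes called; 976, or 8.71%, at an unadjusted p under 0.05). At that unadjusted level stood 3 of the 9 members, Ccnd1 and Ccne1 on the lower side (3.92% of all genes) and Cdkn2c on the higher side (4.79%). The groups did not overlap for 3 members on the lower side and 1 on the higher side, against 6.32% and 8.68% of all genes tested. The median log2 fold change of the 9 was 0.051 and that of all genes 0.029.

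**Figure D1:**
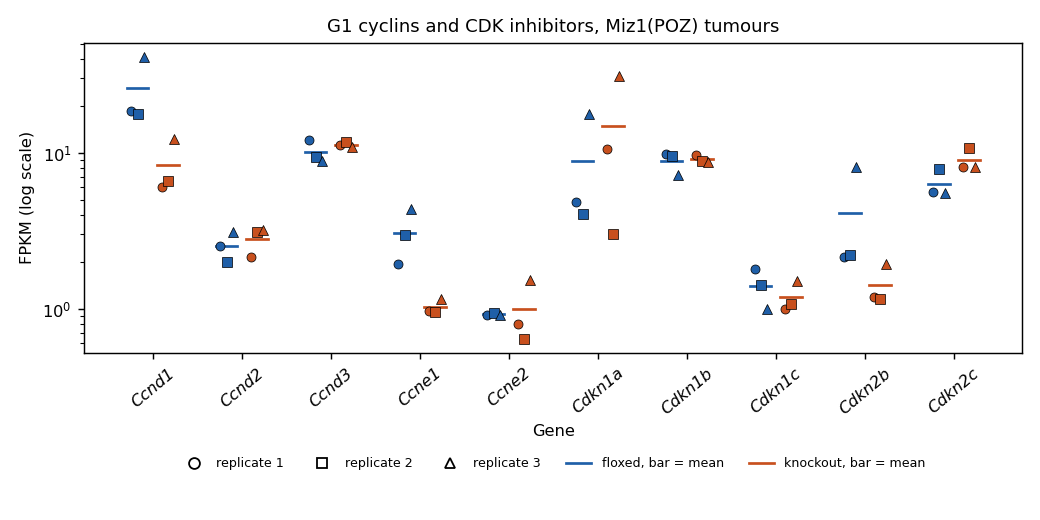
Level in FPKM (log axis) of each of the 10 genes in the 3 floxed (blue) and 3 knockout (orange) Miz1(POZ) libraries, with marker shapes for replicate numbers and bars for group means. Knockout libraries lie below all floxed libraries for Ccnd1, Ccne1 and Cdkn2b and above them for Cdkn2c.

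Ccnd1 (chromosome 7, 144929931 to 144939925, GRCm38), the D-type cyclin that couples growth signals to Cdk4 and Cdk6, was at 18.4, 17.8 and 41.2 FPKM in floxed replicates 1, 2 and 3 and at 6.06, 6.59 and 12.2 FPKM in the knockout replicates. Replicate 3 was the highest library of each group, and the highest knockout value lay below the lowest floxed value. The means were 25.8 ± 13.4 and 8.28 ± 3.40 FPKM (SD, n = 3). The log2 fold change was -1.48 ± 0.37 (moderated SE; 95% interval -2.37 to -0.60), with an adjusted p of 0.380 by limma. It kept its sign without each single library, from -1.77 to -1.10. Of its annotated exonic bases, 23.4% overlap those of LTO1, listed as Oraov1 in the table, on the other strand. Oraov1 was at 3.23 to 4.31 FPKM in the 6 libraries. The part of this overlap in the Ccnd1 values was not tested.

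Ccnd2 and Ccnd3, the other D cyclins, had overlapping groups. Ccnd2 was at 2.52, 2.0 and 3.08 FPKM in floxed libraries, and at 2.13, 3.11 and 3.18 FPKM in knockout tumours (log2 fold change 0.11, 95% interval -0.30 to 0.52; -0.0058 without floxed replicate 2). Ccnd3 was at 12.1, 9.4 and 8.79 FPKM in floxed libraries and at 11.1, 11.8 and 10.8 FPKM in knockout tumours (0.15, -0.17 to 0.48). For Ccnd3 the highest single value was a floxed one.

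Ccne1 (chromosome 7, 38097984 to 38107534), the E-type cyclin that activates Cdk2 at the G1/S boundary, was at 1.92, 2.98 and 4.33 FPKM in floxed replicates 1, 2 and 3. The knockout libraries held 0.97, 0.95 and 1.15 FPKM. The knockout values lay close together and below all floxed values, which were spread more widely. The log2 fold change was -0.97 ± 0.22 (moderated SE; 95% interval -1.49 to -0.44; limma adjusted p = 0.361). As the pseudocount of 1 is close to the knockout level, the change is understated, and it was -1.43 with a pseudocount of 0.1. Ccne2, the other E cyclin, had a mean under 1 FPKM and was not tested. It was at 0.91, 0.93 and 0.91 FPKM in floxed libraries and at 0.80, 0.64 and 1.52 FPKM in knockout tumours. Of its annotated exonic bases, 17.4% overlap those of Ints8.

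Cdkn2b (chromosome 4, 89306299 to 89311039), which encodes p15 and is a textbook target of MYC and Miz1, was at 2.14, 2.2 and 8.04 FPKM in floxed replicates 1, 2 and 3. It was at 1.19, 1.15 and 1.92 FPKM in the knockout replicates. The groups did not overlap, but knockout replicate 3 came close to floxed replicates 1 and 2, and floxed replicate 3 was the high library, as for Ccnd1. The log2 fold change was -0.91 ± 0.41 (moderated SE; 95% interval -1.88 to 0.06; limma adjusted p = 0.608), and it was -0.40 without floxed replicate 3. Cdkn2c (chromosome 4, 109660876 to 109667189), which encodes p18, was at 5.63, 7.85 and 5.50 FPKM in floxed libraries and at 8.14, 10.7 and 8.05 FPKM in knockout tumours. Every knockout library was above every floxed one, though the nearest pair, at 8.05 and 7.85 FPKM, was close. Its log2 fold change was 0.45 ± 0.17 (moderated SE; 95% interval 0.05 to 0.85; limma adjusted p = 0.527).

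Cdkn1a (chromosome 17, 29090976 to 29100727), the p21 gene that p53 activates and a second textbook Miz1 target, was at 4.83, 4.07 and 17.7 FPKM in floxed replicates 1, 2 and 3 and at 10.6, 2.99 and 30.9 FPKM in the knockout replicates. Replicate 3 was the highest of both groups, and the knockout group held both the lowest and the highest library of the 6. Its spread within groups, an SD of 1.29 on the log2(value + 1) scale, was at the 99.2 percentile of all genes tested. The log2 fold change of 0.47 had a 95% interval of -1.43 to 2.37, and without knockout replicate 3 it was -0.27. Cdkn1b, the p27 gene, was at 9.83, 9.47 and 7.19 FPKM in floxed libraries and at 9.67, 8.91 and 8.77 FPKM in knockout tumours (0.051, -0.27 to 0.37; -0.075 without floxed replicate 3). Cdkn1c, the imprinted p57 gene, was at 1.79, 1.42 and 0.99 FPKM and at 1.00, 1.07 and 1.5 FPKM (-0.13, -0.54 to 0.29). The groups of both overlapped. For Cdkn1c, 30.7% of the exonic bases overlap the antisense gene Gm44732, and the counting is not stated to use strand.

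If the Miz1(POZ) values are FPKM, a value per length, as taken here, the levels of the 10 genes can be ordered within that table. In floxed tumours Ccnd1 was the most abundant, with a lowest library of 17.8 FPKM against at most 12.1 FPKM for Ccnd3, the next by mean. From Ccnd3 through Cdkn1a, Cdkn1b, Cdkn2c, Cdkn2b and Ccne1 to Ccnd2, each neighbour in the order overlapped the next. Ccnd2, Cdkn1c and Ccne2 then followed without overlap, at 2.53, 1.40 and 0.917 FPKM on average. In knockout tumours Ccnd1 stood at rank 5 by mean, at 8.28 FPKM, behind Cdkn1a, Ccnd3, Cdkn1b and Cdkn2c, and its range overlapped that of Cdkn2c just above it. Ccne1 was next to last there, at 1.02 FPKM, and overlapped Ccne2. These orders describe the groups, and no difference between genes was tested.

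In Miz1 tumours, the groups overlapped for all 10 members. Ccne1, Cdkn2b and Ccnd1 had the widest spread within groups of the 10. Between same-numbered libraries, Ccnd3 was lower in the knockout in 3 of 3 pairs, and Ccnd2 and Cdkn2c were higher in 3 of 3 (adjusted p = 0.908 for each by limma with the replicate block). The share of all entries with the same direction in every pair was not determined, so this count is not a result about these genes. By limma 0 of 10 passed an adjusted p of 0.05 (0.9998 for each), as did 0% of the 21751 entries tested. None was among the 364 entries (1.67%) at an unadjusted p under 0.05 (0.887% lower and 0.786% higher in the knockout). For none were the groups apart, against 5.62% of all entries (3.05% lower and 2.57% higher in the knockout). With edgeR's quasi-likelihood test on the reads of 5 libraries, 0 genes and 0 members passed (195 genes at an unadjusted p under 0.05). Of the 10 log2 fold changes 8 were positive (median 0.18, against 0.012 for all entries), and the 95% intervals of all 10 included 0.

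**Figure D2:**
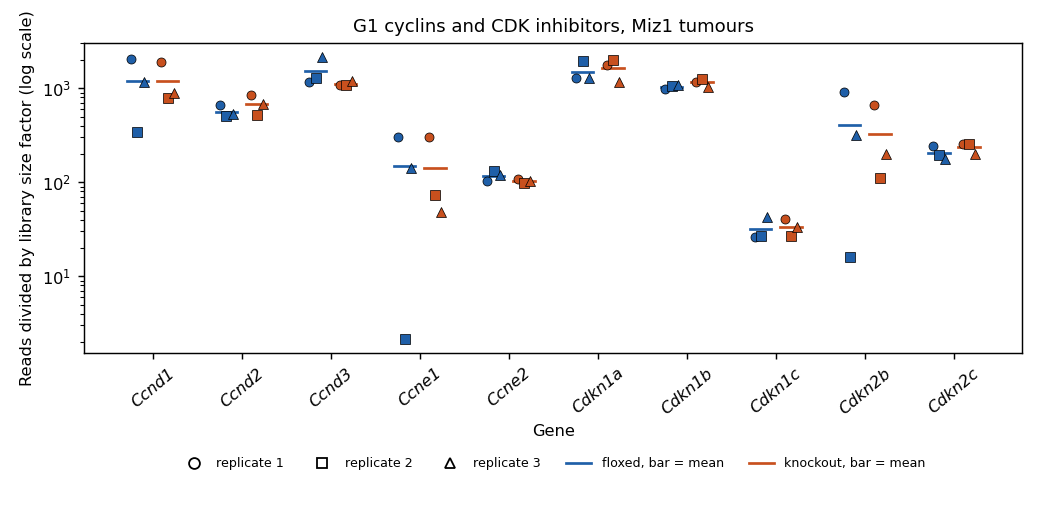
Normalised reads (counts divided by a library factor, log axis) of each of the 10 genes in the 3 floxed (blue) and 3 knockout (orange) Miz1 libraries, with marker shapes for replicate numbers and bars for group means. Floxed replicate 2 (blue square) is the lowest library for Ccnd1, Ccne1 and Cdkn2b, and the groups overlap for every gene.

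Ccnd1 was at 2050, 342 and 1159 normalised reads in Miz1 floxed replicates 1, 2 and 3 and at 1882, 788 and 894 in the knockout replicates. Replicate 1 was the highest of both groups, and floxed replicate 2 the lowest of the 6. Its log2 fold change of 0.23 had a 95% interval of -1.41 to 1.88, was -0.49 without floxed replicate 2 and was -0.15 without knockout replicate 1. Ccnd2 was at 656, 503 and 528 and at 855, 517 and 687 normalised reads (0.27, -0.27 to 0.80). Ccnd3 was at 1153, 1280 and 2163 in floxed and 1071, 1077 and 1183 in knockout tumours. Floxed replicate 3 was the high library, and the log2 fold change of -0.41 (95% interval -1.01 to 0.19) became -0.13 without it.

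Ccne1 was at 305, 2.16 and 143 normalised reads in Miz1 floxed replicates 1, 2 and 3 and at 301, 73.5 and 48.0 in the knockout replicates. The value of floxed replicate 2 came from 2 reads, against 254 in floxed replicate 1. The arithmetic mean was 0.938 times the floxed one in the knockout, whereas the log2 fold change was 0.99 (95% interval -3.20 to 5.18), of the other sign, and without floxed replicate 2 it was -1.02. Ccne2 was at 103, 131 and 119 and at 108, 98.9 and 102 normalised reads (-0.19, -0.65 to 0.28). The spread of Ccne1 within groups was at the 99.5 percentile of all entries, and that of Ccne2 at the 9.52 percentile.

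Cdkn2b was at 903, 16.2 and 315 normalised reads in Miz1 floxed replicates 1, 2 and 3 and at 669, 110 and 201 in the knockout replicates. The order of the 6 libraries was that of Ccnd1, with replicate 1 high in both groups and floxed replicate 2 at 15 reads. For the knockout, a log2 fold change of 0.54 had a 95% interval of -3.04 to 4.11 and was -1.11 without floxed replicate 2 and -0.18 without knockout replicate 1. Cdkn2c was at 245, 195 and 178 and at 254, 253 and 200 normalised reads (0.20, -0.28 to 0.68).

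Cdkn1a was at 1280, 1951 and 1292 normalised reads in Miz1 floxed replicates 1, 2 and 3 and at 1781, 1985 and 1160 in the knockout replicates. Floxed replicate 2, the lowest library for Ccnd1, Ccne1 and Cdkn2b, was here the second highest of the 6. Its log2 fold change was 0.12 (95% interval -0.53 to 0.76), and -0.039 without knockout replicate 2. Cdkn1b had the smallest spread within groups of the 10 members and was at 991, 1045 and 1072 in floxed and 1173, 1260 and 1029 in knockout tumours (0.15, -0.16 to 0.47), at the 6.69 percentile of all entries. Cdkn1c was at 26.4, 27.0 and 42.4 and at 40.7, 26.6 and 33.6 normalised reads (0.086, -0.71 to 0.88). Leaving out a library turned its sign for floxed replicate 1 (-0.031), for floxed replicate 2 (-0.013) and for knockout replicate 1 (-0.059).

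**Figure D3:**
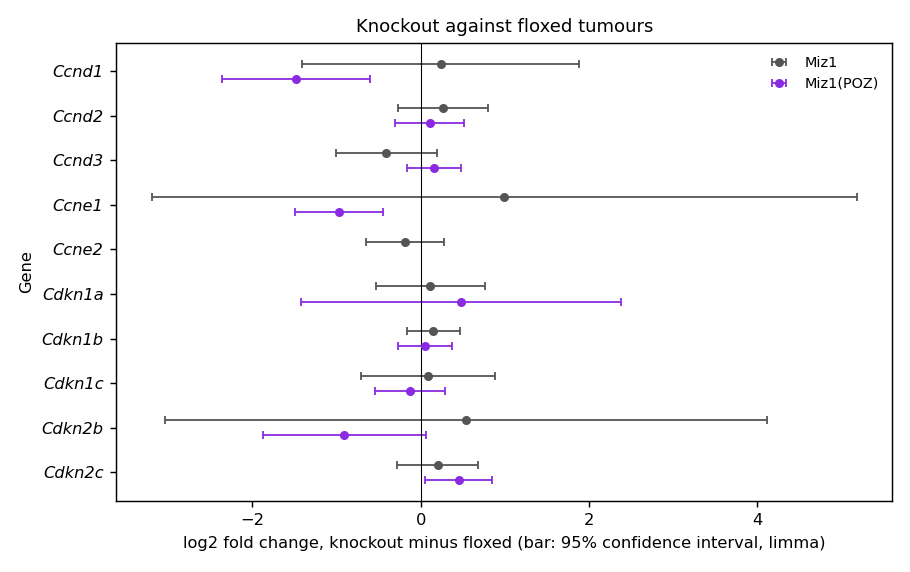
Log2 fold change of knockout over floxed tumours on the log2(value + 1) scale (horizontal axis) for each gene, with 95% confidence intervals from limma, for the Miz1 (grey) and Miz1(POZ) (purple) tables, the latter without Ccne2. The intervals of Ccnd1 and Ccne1 lie below 0 and that of Cdkn2c above 0 in the Miz1(POZ) comparison before adjustment over all genes, while every Miz1 interval includes 0 and those of Ccne1 and Cdkn2b are the widest.

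Side by side, Ccnd1, Ccne1 and Cdkn2b had log2 fold changes of 0.23, 0.99 and 0.54 in the Miz1 and of -1.48, -0.97 and -0.91 in the Miz1(POZ) comparison. The positive Miz1 signs were not kept without Miz1 floxed replicate 2, where the values were -0.49, -1.02 and -1.11. The 95% intervals of the 2 comparisons overlapped for each of these genes. The difference between the comparisons was not tested, because the tables hold different units.

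Ccnd1, Ccne1 and Cdkn2b varied together across libraries in both tables. Cdkn2a, the neighbour of Cdkn2b on chromosome 4 that encodes p16 and p19ARF, varied with all 3 in the Miz1 table. In the Miz1 table Pearson's r over 6 libraries of log2(value + 1) was 0.97 for Ccnd1 with Ccne1 (Spearman's rho 0.94), 0.99 for Ccnd1 with Cdkn2b (rho 1) and 0.98 for Cdkn2b with Cdkn2a (rho 1). Without the 2 libraries farthest from the median of the first gene, r was 0.93, 0.98 and 0.87. Cdkn2a was at 227, 2.16 and 98.0 normalised reads in Miz1 floxed and 104, 31.7 and 32.2 in Miz1 knockout tumours, and floxed replicate 2 was again at 2 reads.

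In the Miz1(POZ) table r was 0.94 for Ccnd1 with Ccne1 (rho 0.89), 0.93 for Ccnd1 with Cdkn2b (rho 0.89) and 0.96 for Cdkn2b with Cdkn2a (rho 0.70). Without the 2 farthest libraries these were 0.83, 0.98 and 0.95. Cdkn2a had an r of 0.84 with Ccnd1 and of 0.79 with Ccne1 there. Without the 2 libraries farthest from the median of Ccnd1 and of Ccne1, respectively, these became -0.019 and 0.39 and so rest on those libraries. The 6 libraries share the separation of the groups, so these r values include the difference between knockout and floxed tumours, and no p is given. Cdkn2a was at 1.57, 1.58 and 7.53 FPKM in floxed libraries and at 0.91, 1.57 and 1.66 FPKM in knockout tumours, with floxed replicate 3 high. Cdkn1a had an r of -0.44 with Ccnd1, -0.39 with Ccne1 and -0.53 with Cdkn2b in the Miz1 table, and of 0.26, 0.069 and 0.40 in the Miz1(POZ) table. The 2 libraries left out next were those farthest from the median of Ccnd1, of Ccne1 and of Cdkn1a, respectively. These r values were then 0.15, 0.38 and -0.65, and 0.085, -0.16 and -0.25. They thus need not rest on the same libraries.

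**Figure D4:**
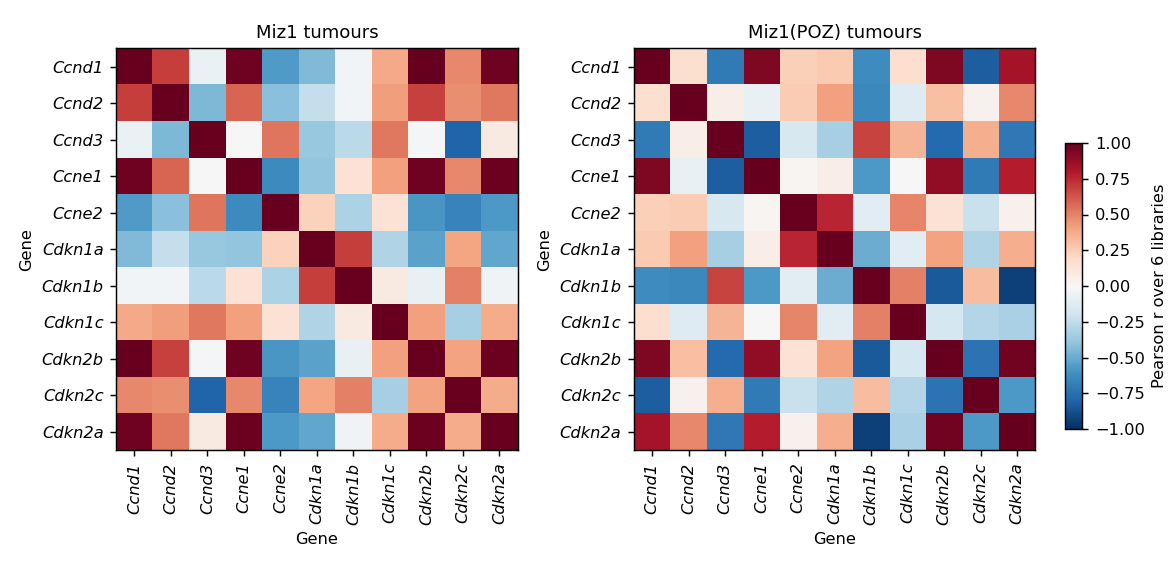
Pearson's r of log2(value + 1) over the 6 libraries of each table for every pair of the 10 genes and Cdkn2a (colour scale from -1 in blue to 1 in red). Ccnd1, Ccne1, Cdkn2b and Cdkn2a are red with each other in both panels, with r of 0.97 for Ccnd1 and Ccne1 in the Miz1 and 0.94 in the Miz1(POZ) table.

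The level of liver tumour markers moved with these genes. The mean log2 level of the 7 markers had an r of 0.89 with Ccnd1, 0.91 with Ccne1 and 0.93 with Cdkn2b over the 6 Miz1 libraries, and of 0.77, 0.79 and 0.92 over the 6 Miz1(POZ) libraries. Without the 2 libraries farthest in marker level, r was 0.25, 0.0083 and 0.45 in the Miz1 and -0.25, 0.14 and -0.16 in the Miz1(POZ) table, so the relation rests on those libraries. Levels of other lists moved with Ccnd1 too. In the Miz1 table r was 0.91 for macrophage and monocyte and 0.86 for hepatocyte markers (0.87 and -0.0049 without the 2 farthest). It was 0.77 for stellate cell and fibroblast, 0.73 for endothelial and 0.37 for cholangiocyte and progenitor markers (0.65, 0.25 and -0.22). In the Miz1(POZ) table it was 0.87 for endothelial and 0.69 for stellate cell and fibroblast markers (0.51 and 0.996). Hepatocyte markers had an r of 0.65 there, and cholangiocyte and progenitor markers one of 0.46 (-0.39 and -0.28). Macrophage and monocyte markers had an r of -0.097 there (-0.82). In Miz1(POZ) tumours the tumour marker sum was 110 to 726 FPKM in floxed libraries and at 81.7 to 202 FPKM in knockout libraries, and none of the 7 markers was at 0 in any library. Its part in the lower Ccnd1, Ccne1 and Cdkn2b values was not tested. Without floxed replicate 3, the library with the highest marker sum, the log2 fold changes were -1.10, -0.75 and -0.40. In the same comparison 5 of the 7 tumour markers had a negative log2 fold change (median -0.52), as did 9 of 10 hepatocyte markers (median -0.16), whose sums were 75504 to 130108 FPKM in floxed and 60623 to 100991 FPKM in knockout libraries. The hepatocyte marker level had an r of 0.80 with Cdkn2b, and of -0.25 without the 2 farthest libraries. Of 8 endothelial markers, 7 had a negative log2 fold change in the Miz1(POZ) comparison and 1 was at an unadjusted p under 0.05 on the lower side, with sums of 93.8 to 113.1 FPKM in floxed libraries and at 77.4 to 101.4 FPKM in knockout libraries. Stellate cell and fibroblast markers had 6 of 9 negative. Macrophage and monocyte markers went the other way, with 8 of 9 positive (median 0.096). Both directions aside, the 2 neutrophil markers tested were positive (median 1.14). The part of these markers was not tested. In bulk tissue, fewer cells that express a gene cannot be told apart from less RNA per cell.

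**Figure D5:**
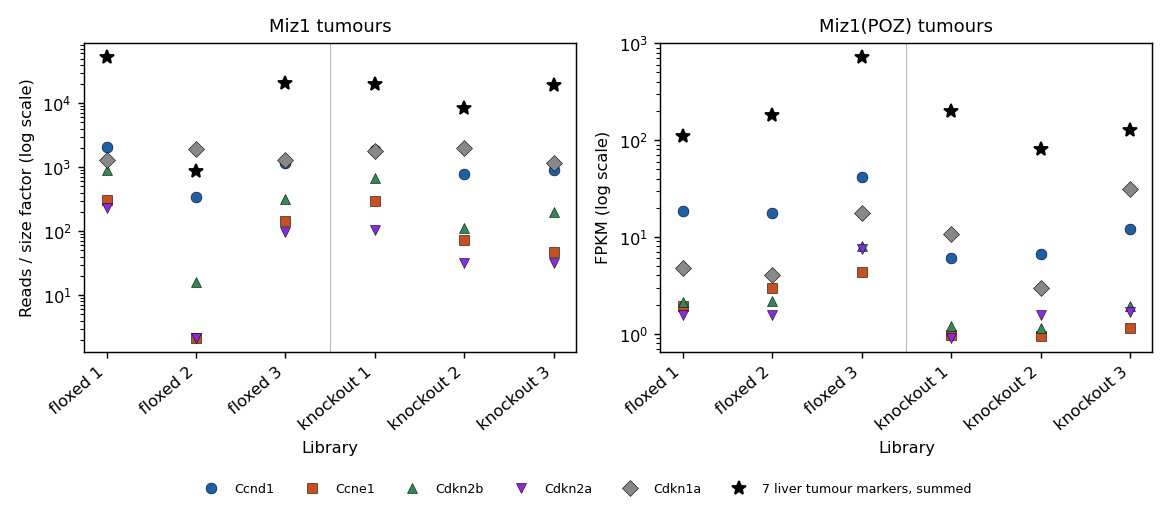
Level of Ccnd1, Ccne1, Cdkn2b, Cdkn2a and Cdkn1a in each library, with the summed level of 7 liver tumour markers (stars), as normalised reads (Miz1, left) or FPKM (Miz1(POZ), right) on log axes. Miz1 floxed replicate 2 is lowest for the marker sum (863), Ccnd1, Ccne1, Cdkn2b and Cdkn2a and not for Cdkn1a, and Miz1(POZ) floxed replicate 3 is highest for the marker sum (726 FPKM), Ccnd1, Ccne1, Cdkn2b and Cdkn2a.

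Among the 10841 other genes tested in both tables, those most like Ccnd1 by the lower of its r in the 2 tables, over 6 libraries each, were Glis3 (0.98 and 0.99), Pxn (0.98 and 0.98) and Cped1 (0.98 and 0.97). For Cdkn1a they were Lnx2 (0.80 and 0.88), Skil (0.78 and 0.76) and Ddit3 (0.70 and 0.85). With 6 libraries a table, such values describe these libraries only.

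Among the kinases that the cyclins bind, Cdk4 and Cdk2 had overlapping groups in both tables and Cdk6 in the Miz1 table. Cdk4 was at 14.0, 17.4 and 16.0 FPKM in Miz1(POZ) floxed and 15.1, 14.9 and 16.2 FPKM in knockout tumours, and Cdk2 was at 3.54 to 4.71 and 3.98 to 4.23 FPKM. Cdk6 was at 11.25, 11.7 and 15.5 FPKM and at 8.48, 10.7 and 10.6 FPKM (log2 fold change -0.33, limma adjusted p = 0.622). Each floxed Cdk6 value was above each knockout value. In the Miz1 table Cdk4, Cdk6 and Cdk2 had log2 fold changes of 0.13, 0.28 and 0.22. Of the 10 kinases and partners, 0 passed in either table. The smallest p in the Miz1(POZ) table was that of Cdc25a, the phosphatase that activates Cdk2, at 2.02, 1.75 and 1.82 FPKM in floxed libraries and at 1.05, 0.98 and 1.45 FPKM in knockout tumours (adjusted p = 0.471 by limma); in the Miz1 table it was that of Cks2.

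Of the 13 pocket protein and E2F genes, 0 passed among the 13 tested in the Miz1 and the 9 tested in the Miz1(POZ) table. Rb1 was at 622 to 659 normalised reads in Miz1 floxed and 565 to 591 in knockout tumours, where the knockout values lay below the floxed ones (log2 fold change -0.15, limma adjusted p = 0.9998). It was at 3.62 to 4.77 and 4.17 to 5.46 FPKM in the Miz1(POZ) groups. E2f1 was at 50.9 to 79.2 and 38.3 to 75.8 normalised reads in the Miz1 groups, and under 1 FPKM on average in the Miz1(POZ) table. The smallest p of the list was that of E2f2 in the Miz1 table (log2 fold change 0.96) and that of E2f5 in the Miz1(POZ) table (log2 fold change 0.24).

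E2F target and S phase genes passed for 0 of 21 in the Miz1 and 0 of 13 in the Miz1(POZ) table, with median log2 fold changes of 0.27 and 0.13. Mcm7, a subunit of the replicative helicase, had the smallest p in the Miz1(POZ) table, at 4.53, 4.14 and 3.57 FPKM in floxed libraries and at 4.98, 5.10 and 5.61 FPKM in knockout tumours (adjusted p = 0.533 by limma). The mean level of the 21 genes had an r of 0.95 with Ccnd1 over the 6 Miz1 libraries and of -0.72 over the 6 Miz1(POZ) libraries (0.98 and -0.99 without the 2 farthest). The sign of this r thus differed between the tables, and no difference was tested. In the Miz1 table Ccnb1, a mitotic cyclin, had the smallest p of the list (log2 fold change 1.36 ± 1.18, moderated SE).

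Of 13 genes of the MYC network, 0 passed in either table. Myc was at 9.50, 11.5 and 6.23 FPKM in Miz1(POZ) floxed and 4.38, 2.39 and 6.31 FPKM in knockout tumours (log2 fold change -0.94 ± 0.31, moderated SE; limma adjusted p = 0.468), and the groups overlapped by the value of replicate 3. Mnt, a repressor that competes with MYC for Max, was at 4.99, 4.71 and 5.44 FPKM and at 3.50, 3.07 and 3.84 FPKM, the smallest p of the list (adjusted p = 0.393 by limma). Every Mnt knockout value lay below every floxed value. In Miz1 tumours Myc was at 251, 150 and 164 normalised reads in floxed and 347, 86.2 and 169 in knockout libraries.

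The list of p53 targets other than Cdkn1a, which also holds Trp53, passed for 0 of 19 in each table. In Miz1(POZ) tumours, 4 of the 19 were at an unadjusted p under 0.05 on the lower side, as were 3.92% of all genes tested, and the median log2 fold change of the 19 was -0.26. These were Mdm2, Bax, Aen and Plk2, of which Mdm2, Bax and Aen are named after their values were seen. Plk2 was at 8.25, 7.42 and 6.81 FPKM in floxed libraries and at 6.31, 4.45 and 4.84 FPKM in knockout tumours (adjusted p = 0.448 by limma). Trp53 itself was at 8.03 to 9.89 and 6.65 to 10.5 FPKM. The mean level of these 19 genes had an r of 0.98 with Ccne1 and of -0.43 with Cdkn1a over the 6 Miz1 libraries, and of 0.78 and 0.65 over the 6 Miz1(POZ) libraries. Without the 2 libraries farthest in the level of the list, these were 0.98 and 0.23, and 0.14 and 0.53. The values of Cdkn1a in the Miz1 and of Ccne1 in the Miz1(POZ) table thus rest on those libraries. In the Miz1 table Trp53inp1 had the smallest p of the list (log2 fold change -0.48 ± 0.22, moderated SE).

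Genes linked to single inhibitors gave 0 calls as well. Of 10 TGF-beta pathway genes, which regulate Cdkn2b through SMAD proteins, Smad7 had the smallest p in the Miz1(POZ) table, at 7.69, 6.02 and 4.41 FPKM in floxed libraries and at 3.11, 3.24 and 4.98 FPKM in knockout tumours, with overlapping groups. Of the FOXO list, 5 genes were tested in each table. Foxo3, a factor that activates Cdkn1b, was at 2718, 3211 and 3523 normalised reads in Miz1 floxed and 1913, 2238 and 2437 in knockout tumours (log2 fold change -0.52 ± 0.16, moderated SE; limma adjusted p = 0.9998), with the groups apart. Sesn3, a FOXO target, was at 6.56, 5.98 and 4.44 FPKM in Miz1(POZ) floxed and 8.05, 8.05 and 9.67 FPKM in knockout tumours (adjusted p = 0.422 by limma). Of 10 imprinted genes near Cdkn1c or in its network, 10 were tested in the Miz1 and 5 in the Miz1(POZ) table, and Plagl1 and Slc22a18 had the smallest p (log2 fold changes 0.34 and 0.29). Of 12 genes for the turnover of G1 cyclins and inhibitors, 12 and 11 were tested, and Fbxw7 and Fbxo4, which encode F-box proteins that recognise cyclin E and cyclin D1, had the smallest p in the Miz1 and the Miz1(POZ) table (log2 fold changes 0.21 and 0.36). Cdkn2d, the other INK4 gene, had a log2 fold change of 0.19 in the Miz1 table.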

How the data were processed

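RNA of 12 mouse liver tumour samples was sequenced from TruSeq libraries, 3 per group. The mm10 genome, DESeq2 1.16.1, edgeR 3.18.1, RSEM 1.1.17, Bowtie2 2.2.6, Trimmomatic 0.36 and bcl2fastq 2.19.0 are named without roles, per the submitters' processing notes. Neither table states its tool or unit. As deposited, the Miz1 values are a signal, read counts scaled by 1 size factor for each sample. Whole reads were recovered for 5 libraries from 100% of their non-zero values (tolerance 0.01 reads), while for floxed replicate 3 the value of 1 read was too close to 1 to claim reads. Left out were 4 entries that name no gene (38.0% to 50.8% of the column sums, highest in floxed replicate 2). The deposited Miz1(POZ) values are taken as FPKM (RPKM cannot be told apart), with no depth. As neither table holds raw counts, limma 3.58.1 (R 4.3.3) was run on log2(value + 1), eBayes with trend, for genes with a mean of at least 1, within each table. Such fold changes understate changes of low genes. Positions are from GENCODE M21 (GRCm38, which is mm10).

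The members and gene lists were chosen with earlier results of these data known. All members are named, and of each pathway list the gene with the smallest p in a table and the direct partners. Tests were checked on simulated data. Replicate numbers come from the titles. Correlations across genes of same-numbered Miz1 libraries, as deviations from the group mean, were 0.489, 0.339 and 0.118. Those of differently numbered libraries were -0.427 to 0.282, highest for floxed replicate 2 with knockout replicate 3. Whether the numbers pair the libraries is therefore uncertain. The values printed are without the replicate block unless it is named. With the block the SE of Ccnd1 in the Miz1 table was 0.33, against 0.68 without it. Alternatives were a pseudocount of 0.1, no filter or a minimum mean of 5, median-of-ratios and quantile scaling, the replicate block, edgeR 4.0.16 on recovered reads (0 genes called), removal of unnamed XLOC loci, and leaving out each library.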

Additional observations from a re-analysis of the deposited data

How the results depend on the processing

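No member passed an adjusted p of 0.05 in either table under any alternative run, and the count of genes called in the Miz1 table was 0 under each. In the Miz1(POZ) table the count of genes called was 6 without a filter on the mean and 0 to 4 when 1 library was left out (1 without floxed replicate 1, 2 without floxed replicate 2 and 4 without floxed replicate 3). With the replicate block, 0 genes and 0 members were called in either table; adjusted p of the members were then 0.908 to 0.977 in the Miz1 and 0.185 (Ccnd1) to 0.929 (Cdkn1b) in the Miz1(POZ) table. Pairing was not supported in the Miz1(POZ) table, where same-numbered libraries had correlations of -0.093, 0.230 and 0.175.

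Of the alternative values of member fold changes, 129 in the Miz1 and 101 in the Miz1(POZ) table kept their direction and 11 and 3 turned. The filters on the mean, the replicate block and the removal of XLOC loci leave a fold change as it is. Values from these settings could not turn, so the counts that kept their direction do not measure robustness. Every value that turned came from leaving out a library or from edgeR. Leaving out 1 library gave, in the Miz1 table, log2 fold changes from -0.49 to 0.80 for Ccnd1, -1.02 to 2.27 for Ccne1, -0.039 to 0.35 for Cdkn1a, -0.059 to 0.30 for Cdkn1c and -1.11 to 1.74 for Cdkn2b. In the Miz1(POZ) table it gave -0.0058 to 0.24 for Ccnd2, -0.27 to 1.23 for Cdkn1a and -0.075 to 0.13 for Cdkn1b. With edgeR on the reads of 5 libraries, Ccne1 was at -0.11 and Cdkn2b at -0.47; the cause was not tested. Ccne2 could not be tested in the Miz1(POZ) table at the minimum mean of 1. Ccne1 and Cdkn2a in Miz1 floxed replicate 2 rest on 2 reads each, so counting error is large there.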
